A study of Arabidopsis thaliana with 12 samples.

Results

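The response of wild-type Arabidopsis seedlings to salt was described from 6 arrays, 3 titled WT_salt_12h and 3 titled WT_control, of the 12 arrays in the series. The plants were whole 10-day-old seedlings of the wild-type Landsberg erecta (Ler) strain. WT_salt_12h seedlings had been kept in 125 mM NaCl for 12 h, and WT_control seedlings had been kept on 1/2 MS medium alone and were collected at 0 h. The other 6 arrays held proatcape1, a T-DNA knockout in the same strain, under the same treatments. They shared in deciding which probes were kept and which probe stood for each locus. In the model they served only to estimate the spread and to test whether a salt effect differed between the genotypes. Salt and 12 h of further time, including the change in time of day, cannot be told apart here.

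High salinity lowers the water potential around the root and loads the tissue with sodium and chloride ions. Seedlings respond through abscisic acid and osmotic signalling, slow their growth and redirect carbon and nitrogen, and a large share of the genome is transcribed differently within hours. Dehydration proteins and abscisic acid signalling are the best known outputs. The lists described below cover routes outside them: respiration, primary metabolism, the chloroplast, the growth machinery, cell walls, other hormones, signalling and the families of transcription factors.

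Each value is a relative signal, which is the background-corrected intensity of a probe divided by the 75th percentile of its array, and 3 values are given in the order of replicates 1, 2 and 3. Changes are in log2, salt minus control, with the standard error (SE) and the Benjamini-Hochberg adjusted p of limma over the 19027 genes tested. A gene passed when its adjusted p was at most 0.05 and its change over 1.5-fold. Of all genes tested, 39.3% passed (17.5% higher and 21.8% lower in salt), and the median change was −0.11, so counts in a list are read beside these shares. On the wild-type arrays 81.0% of genes had salt and control values that did not overlap, so separation of the groups alone was common. The arrays had 74.2 to 78.8% of probes well above background, and no spot was saturated. Low signals depend on the background correction. Under normexp, another correction, an offset of 50 was added to every corrected signal. Such an offset by itself draws the changes of dim probes towards 0, and its part in the changes under normexp was not tested. The changes of 80 of 424 named genes moved by over 1.5-fold, each towards 0, and 40 of the 80 were not well above background on every wild-type array. For these the change under normexp is given beside the value.

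Shoot markers had nearly equal levels in salt and control, whereas several root markers were lower in salt. The summed relative signal of the 7 shoot markers ranged over 775 to 790 in salt and 775 to 814 in control, and none of them passed. CAB1 (AT1G29930), a light-harvesting chlorophyll protein, had 236, 229.7 and 237 in salt, against 228, 225 and 244 in control. The 2 groups overlapped for this gene. The summed signal of the 9 root markers ranged over 3.41 to 3.96 in salt and 7.34 to 8.77 in control, with 5 of 9 lower and none higher. PRP3 (AT3G62680), a root hair wall protein, had 0.0699, 0.101 and 0.139 in salt, against 0.705, 0.836 and 0.643 in control, and fell by 2.87 (SE 0.24, adjusted p = 1.06e-06). The Casparian strip protein CASP1 fell by 1.83, the tonoplast aquaporin TIP2;3 by 1.70 and the iron transporter IRT1, well above background on 2 of 3 salt arrays, by 2.48 (normexp −1.17), while SCR, a regulator of root tissue layers, changed by 0.37 and did not pass. The nitrate transporter NRT2.1, the phosphate transporter PHT1;4 and SHR, the partner of SCR, did not pass either. In whole seedlings, fewer cells of a type and less RNA per cell cannot be told apart. Of 9 flower and pollen markers, a tissue that seedlings lack, 7 did not reach the signal needed for testing, PI changed by 0.10 and did not pass, and SEP3 fell by 2.00.

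**Figure D1:**
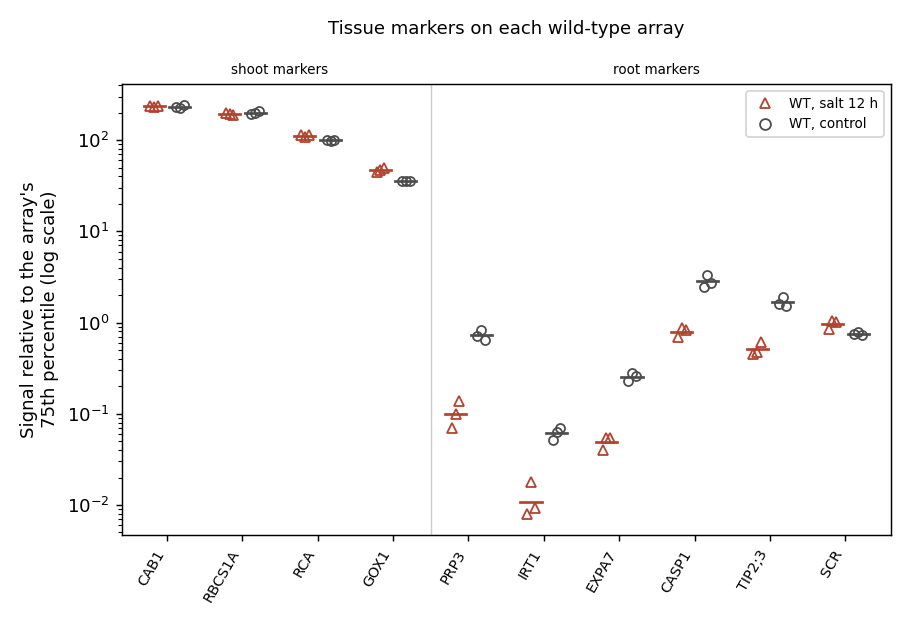
Relative signal (signal over the array's 75th percentile, log scale) of shoot and root markers on each wild-type array, salt to the left of control, with short lines at the mean of log2 values. The 2 sets of points lie at almost the same height for CAB1, RBCS1A and RCA and are apart for PRP3, IRT1, EXPA7, CASP1 and TIP2;3, which were lower in salt.

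The lists of routes differed widely in how many members passed and in direction. Across all pathway lists, 988 of 1171 genes were tested, of which 234 were higher and 227 lower in salt. Together 46.7% of them passed, beside 39.3% of all genes. The lists were chosen with earlier results of these data known, so a share above that of all genes may reflect that choice. Alternative respiration had the highest median change and tubulin and actin the lowest. DNA replication, the ribosome and nucleolus, the PUB ubiquitin ligases and alternative respiration each had members that passed in 1 direction only.

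**Figure D2:**
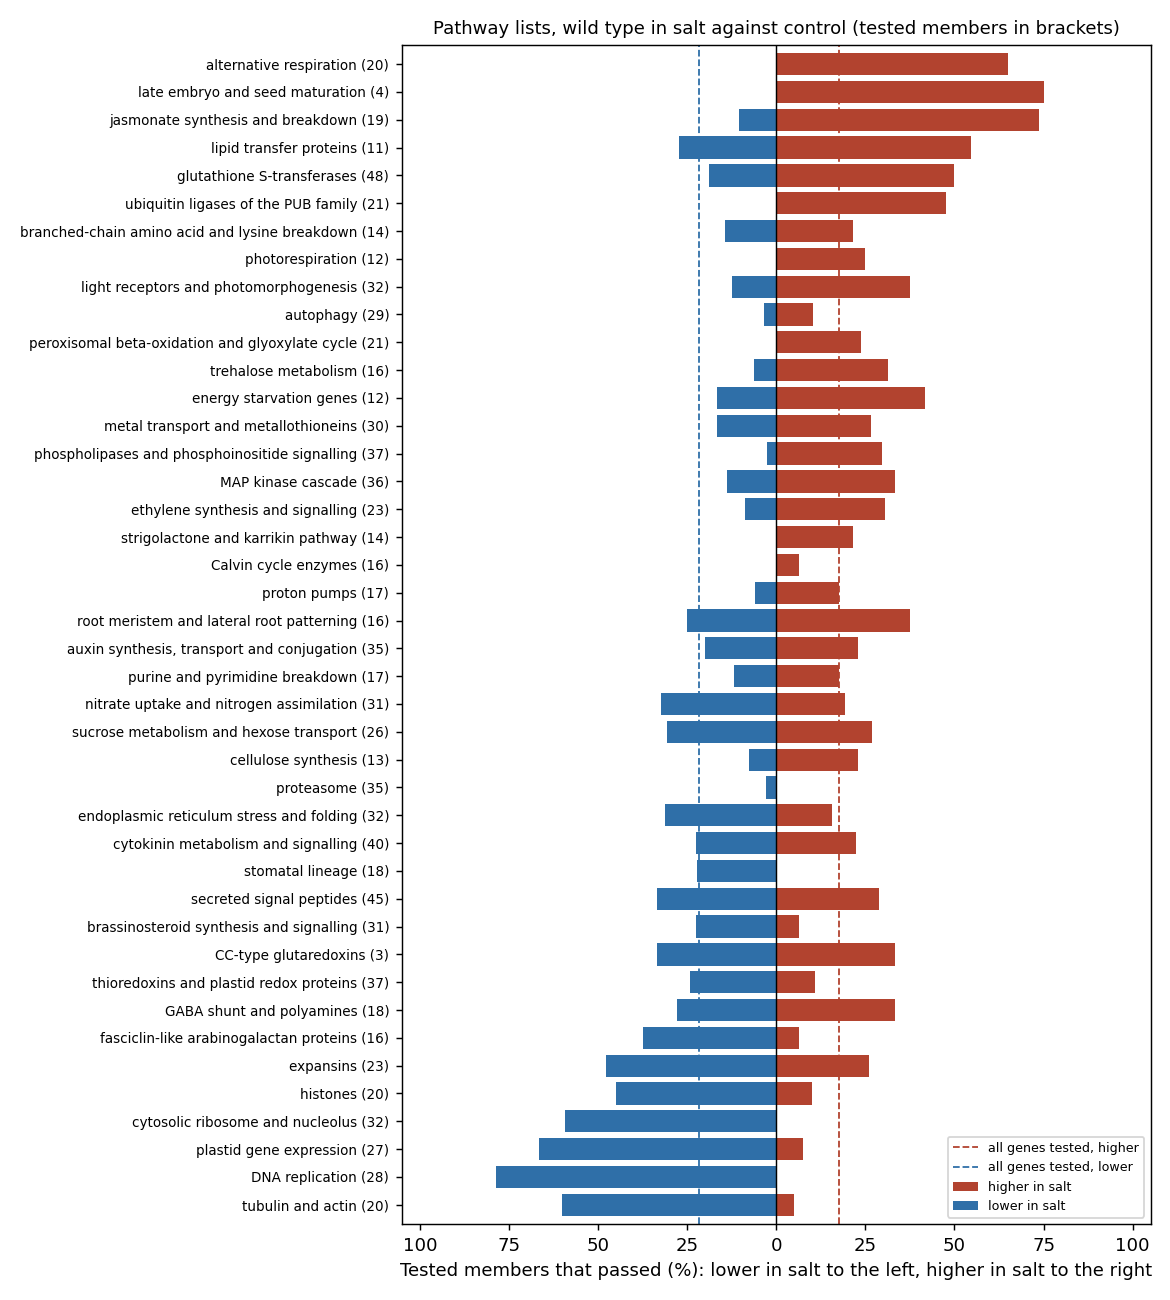
Tested members of each pathway list that passed, in per cent, with members higher in salt to the right and members lower in salt to the left, ordered by the median log2 change. Dashed lines mark the shares over all genes tested, 17.5% higher and 21.8% lower. Bars at the top of the plot extend mainly to the right (alternative respiration, jasmonate) and bars at the bottom mainly to the left (DNA replication, plastid gene expression, tubulin and actin).

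Transcripts for the alternative pathways of mitochondrial respiration were higher in salt. These enzymes let electrons bypass the proton-pumping complexes: type II NAD(P)H dehydrogenases feed electrons into the chain, and alternative oxidases pass them to oxygen. Of 12 such genes, 11 were tested, and 9 rose and none fell, with a median of 2.03. The alternative oxidase AOX1D (AT1G32350) had 3.47, 2.67 and 2.11 in salt, against 0.0311, 0.0620 and 0.359 in control, and rose by 4.93 (SE 0.67, adjusted p = 4.46e-05, normexp 4.33). The groups did not overlap, but control replicate 3 lay well above the other control arrays, and the rise of AOX1D was 5.94 without it, 6.12 on scan day 1 alone and 4.17 without control replicate 1. The internal dehydrogenase NDA1 (AT1G07180) had 8.96, 9.43 and 8.96 in salt, against 1.26, 1.02 and 1.52 in control, and rose by 2.87 (SE 0.13, adjusted p = 1.04e-08). NDB2 (AT4G05020), an external dehydrogenase, had 12.5, 12.5 and 11.9 in salt, against 2.75, 2.35 and 3.03 in control, and rose by 2.19 (SE 0.08, adjusted p = 2.83e-09). AOX1A (AT3G22370), the main oxidase of leaves, had 17.3, 17.6 and 14.7 in salt, against 4.44, 3.55 and 5.32 in control, a rise of 1.92. All of these genes had every salt array above every control array. NDB4 rose by 3.66 (normexp 2.64, 4.35 without control replicate 3) and NDA2 by 1.14, whereas NDC1 and NDB1 were among the members that did not pass. Among the 9 uncoupling proteins and markers of mitochondrial signalling, 4 rose, including BCS1, an outer membrane ATPase, by 3.06, and the membrane-bound factor NAC013 by 1.94. The dicarboxylate carrier DIC3 changed by 0.39 and did not pass.

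Glutathione S-transferases, which join glutathione to reactive compounds, changed in both directions, with the tau class mostly higher. Of 26 tau members tested, 16 rose and 4 fell (median 1.45), and of 12 phi members 5 rose and 5 fell (median −0.05). GSTU12 (AT1G69920) had 2.31, 2.33 and 1.53 in salt, against 0.0180, 0.0145 and 0.00898 in control, and rose by 7.25 (SE 0.30, adjusted p = 5.76e-09, normexp 5.66). GSTU14 (AT1G27140) had 0.151, 0.177 and 0.124 in salt, against 0.822, 1.02 and 0.923 in control, and fell by 2.62 (SE 0.14, adjusted p = 2.86e-08). Members of 1 class thus lay at both ends of the range. GSTU11 rose by 6.58 (normexp 5.54, 5.90 without control replicate 1), from controls well above background on 2 of 3 arrays, GSTF7 rose by 3.60 and GSTF14 fell by 2.41. Probes of tandem copies in this family can share signal, and their part in these values was not tested. Thioredoxins of the plastid, small proteins that pass reducing power to enzymes, included 6 of 17 tested members that fell and 1 that rose. WCRKC1 (AT5G06690), named for its unusual active site, had 0.0506, 0.0483 and 0.0651 in salt, against 2.90, 3.16 and 2.84 in control, and fell by 5.77 (SE 0.11, adjusted p = 4.42e-11, normexp −5.16). ACHT4 was the member that rose, by 1.5, while its relative ACHT5 (AT5G61440) had 0.253, 0.266 and 0.247 in salt, against 1.66, 1.60 and 1.62 in control, and fell by 2.67 (SE 0.12, adjusted p = 9.29e-09). Related thioredoxins thus went opposite ways. The CC-type glutaredoxin ROXY19, also called GRX480, rose by 4.78 (SE 0.46, adjusted p = 3.01e-06) and by 5.45 without control replicate 3, its highest control array.

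Sucrose metabolism changed gene by gene. Sucrose synthases split sucrose reversibly into a sugar nucleotide and fructose, and 3 of 5 tested members rose. SUS3 (AT4G02280) had 3.58, 2.42 and 2.96 in salt, against 0.131, 0.149 and 0.142 in control, and rose by 4.39 (SE 0.12, adjusted p = 3.67e-10). SUS1 rose by 2.02 and SUS4 by 1.70. The sucrose phosphate synthase SPS2F (AT5G11110), which acts in sucrose synthesis, had 2.46, 1.74 and 2.36 in salt, against 0.298, 0.317 and 0.279 in control, and rose by 2.86 (SE 0.11, adjusted p = 3.39e-09), whereas the other 2 tested members did not pass. Hexose and sucrose transporters were more often on the other side: of 13 tested, 6 fell and 3 rose. STP14 fell by 2.20 (SE 0.10, adjusted p = 9.81e-09) and the tonoplast carrier TMT1 by 1.38 (SE 0.09, adjusted p = 2.04e-07). No invertase rose and 2 of 5 fell. Trehalose 6-phosphate, a signal of sucrose supply, is made by synthases and removed by phosphatases; of 7 phosphatases tested 3 rose and 1 fell. TPPD rose by 2.23 (SE 0.24, adjusted p = 6.42e-06), and TPPH fell by 1.1 (SE 0.10, adjusted p = 2.51e-06).

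Genes named for their induction in the dark (DIN) were mostly higher, and 5 of 8 passed in that direction, but 3 did on scan day 1 alone. Their median change was 1.21, 0.11 and 1.67 on slides 1, 2 and 3. DIN2 (AT3G60140), a beta-glucosidase, had 3.11, 2.29 and 2.73 in salt, against 0.0216, 0.0954 and 0.0784 in control, and rose by 5.62 (SE 0.44, adjusted p = 5.97e-07, normexp 4.89), or by 4.96 without control replicate 1. DIN11, an oxygenase-like protein, rose by 3.71 (SE 0.47, adjusted p = 2.5e-05). In contrast DIN10 (AT5G20250), annotated among enzymes of raffinose sugars, had 3.90, 3.85 and 3.23 in salt, against 20.4, 19.3 and 17.9 in control, and fell by 2.40 (SE 0.16, adjusted p = 1.69e-07). The sign within the DIN group was therefore not shared, and DIN6, the asparagine synthetase also called ASN1, overlapped between the groups although it passed (1.03, adjusted p = 0.0112). Without salt replicate 1 DIN6 no longer passed (0.77, adjusted p = 0.0501). Of the kinase subunits of SnRK1, the sensor of low energy, 1 of 4 fell, AKINBETA1 by 0.65. Breakdown of lysine and branched-chain amino acids, which can feed respiration, had 3 members higher and 2 lower of 14. The bifunctional first enzyme of lysine breakdown, LKR/SDH, rose by 1.67 (SE 0.18, adjusted p = 7.36e-06). The branched-chain aminotransferase BCAT1 fell by 1.27 (SE 0.06, adjusted p = 8.86e-09), whereas BCAT2 rose by 0.94 (SE 0.24, adjusted p = 0.00399) with overlapping groups and did not pass on scan day 1 alone (0.67, adjusted p = 0.0902).

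Few genes for fat and carbon oxidation in peroxisomes passed. Of 21 genes tested 5 rose (23.8%, beside 17.5% of all genes) and none fell. The acyl-CoA oxidase ACX1 (AT4G16760) had 12.9, 11.2 and 12.2 in salt, against 3.72, 3.85 and 3.89 in control, and rose by 1.66 (SE 0.06, adjusted p = 1.28e-09). Isocitrate lyase (ICL), of the glyoxylate cycle, rose by 1.45 (SE 0.28, adjusted p = 0.00058). By comparison, 16 enzymes of the Calvin cycle, which fixes carbon dioxide, had 1 member that passed, the plastid aldolase FBA1 (0.85), and a median of 0.03. In photorespiration 3 of 12 rose, with both P subunits of glycine decarboxylase among them, GLDP2 by 0.97 (SE 0.05, adjusted p = 2.54e-08). Under quantile scaling 6 photorespiration genes passed instead.

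Nitrogen transport and assimilation had 6 members higher and 10 lower of 31 tested. The ammonium transporters did not move together. AMT1;2 (AT1G64780) had 2.48, 2.93 and 2.91 in salt, against 0.402, 0.496 and 0.432 in control, and rose by 2.65 (SE 0.11, adjusted p = 6.06e-09), while the other 4 tested members fell, AMT1;3 by 0.94 and AMT1;5 by 0.86 (not passing under normexp, −0.46). Of the nitrate transporters, NRT1.8, which unloads nitrate from the xylem, rose by 1.1 (SE 0.18, adjusted p = 0.000222) and the other 7 tested did not pass. Glutamate dehydrogenase GDH3 (AT3G03910) had 0.0211, 0.0223 and 0.0250 in salt, against 0.138, 0.107 and 0.133 in control, and fell by 2.46 (SE 0.20, adjusted p = 7.05e-07, normexp −1.45). Genes for the amino acid GABA included GAD4 (AT2G02010), a glutamate decarboxylase, which had 0.274, 0.281 and 0.189 in salt, against 0.0143, 0.00808 and 0.0145 in control, and rose by 4.36 (SE 0.27, adjusted p = 8.44e-08, normexp 2.91). GAD2, the form known from all organs, did the reverse and fell by 1.15 (SE 0.07, adjusted p = 5.86e-08), as did ALDH5F1, the last enzyme of the route, by 1.54 (SE 0.10, adjusted p = 9.51e-08). SPDS3, which encodes a spermine synthase, rose by 2.68 (SE 0.08, adjusted p = 5.3e-10), and in breakdown of pyrimidines PYD4, an aminotransferase-like enzyme, rose by 4.24 (SE 0.28, adjusted p = 1.64e-07) while the uracil transporter UPS2 fell by 1.73 (SE 0.06, adjusted p = 1.87e-09).

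Nuclear genes for transcription in the chloroplast were mostly lower. The plastid-encoded RNA polymerase works with sigma factors, which choose promoters, and with a group of associated proteins that form its large complex. Of 21 tested associated proteins, 17 fell and none rose (median −0.82). PTAC6 (AT1G21600) had 1.36, 1.72 and 1.74 in salt, against 4.74, 4.37 and 4.61 in control, and fell by 1.52 (SE 0.09, adjusted p = 9.72e-08). PTAC17 fell by 1.53, and the iron superoxide dismutases of the complex, FSD2 and FSD3, by 1.14 and 1.03. Every salt array was below every control array for these 4 genes. The sigma factors moved differently: SIGE (AT5G24120) had 4.27, 3.71 and 3.91 in salt, against 0.475, 0.411 and 0.441 in control, and rose by 3.16 (SE 0.09, adjusted p = 3.67e-10), SIGA rose by 1.70 (SE 0.07, adjusted p = 4.46e-09), SIGD fell and the other 3 did not pass. Genes of light perception and protection were higher more often than lower (12 and 4 of 32). The early light-induced protein ELIP2 (AT4G14690), which binds chlorophyll under stress, had 21.2, 17.2 and 20.2 in salt, against 1.46, 1.29 and 1.26 in control, and rose by 3.87 (SE 0.11, adjusted p = 5.84e-10). ELIP1 rose by 2.70, and SPA4, a partner of the COP1 ligase, by 1.76. PHYB, the red-light receptor, changed by 0.58 and did not pass.

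**Figure D3:**
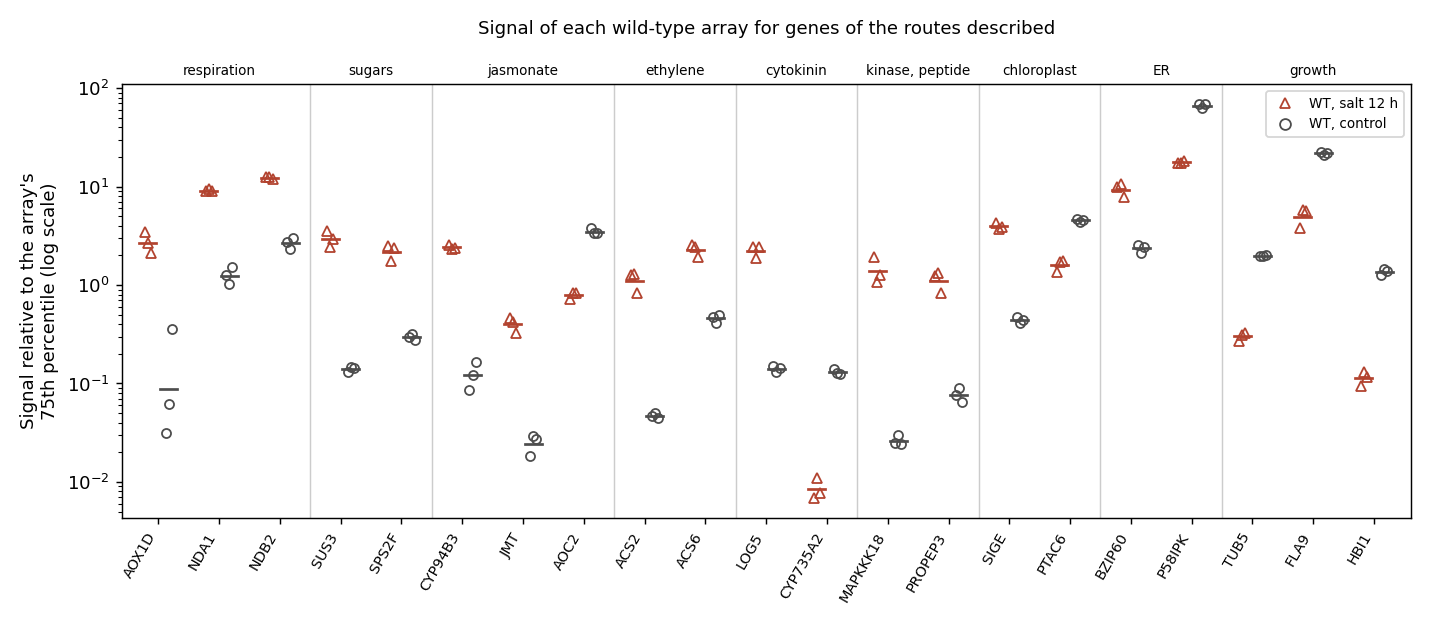
Relative signal (signal over the array's 75th percentile, log scale) on each wild-type array for genes of the routes described, salt (triangles) to the left of control (circles), with short lines at the mean of log2 values. For each gene drawn the salt arrays lie apart from the control arrays, and AOX1D has 1 control array far above the other 2.

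Many genes of the growth machinery were lower in salt. DNA replication had 22 of 28 tested members lower and none higher (median −0.77). CDC6 (AT2G29680), which loads the replicative helicase, had 0.126, 0.164 and 0.131 in salt, against 0.338, 0.306 and 0.301 in control, and fell by 1.18 (SE 0.09, adjusted p = 5.01e-07). FAS1, of the complex that places histones on new DNA, fell by 1.09 (SE 0.07, adjusted p = 1.06e-07). Individual changes in this list were small, with CDC6 the largest. Core histones had 9 of 19 lower and 1 higher, whereas the linker histone HIS1-3, known to respond to drought, rose by 1.03 (SE 0.14, adjusted p = 5.27e-05). In the ribosome and nucleolus 19 of 32 fell and none rose, 11 of 14 nucleolar factors among them. The rRNA-processing fibrillarin FIB2 (AT4G25630) had 1.55, 2.03 and 1.71 in salt, against 4.63, 3.93 and 4.94 in control, and fell by 1.35 (SE 0.12, adjusted p = 1.54e-06). By contrast, 34 of 35 proteasome subunits did not pass and RPT2b fell (−0.70). The autophagy list had 3 members higher and 1 lower of 29, and 1 or 5 higher without salt replicate 1 or 2.

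Tubulins, the subunits of microtubules, fell in 11 of 15 members and rose in 1. TUB5 (AT1G20010) had 0.273, 0.312 and 0.325 in salt, against 1.99, 1.96 and 2.01 in control, and fell by 2.72 (SE 0.06, adjusted p = 1.15e-10). TUA5 fell by 1.87, TUB1 by 1.86 and TUA3 by 1.78. TUA1 (AT1G64740), known for its pollen expression, had 0.691, 0.723 and 0.774 in salt, against 0.345, 0.325 and 0.345 in control, and rose by 1.11 (SE 0.06, adjusted p = 2.22e-08). Among the 5 actins tested, 1 fell. Near-identical tubulin genes can share probe signal.

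Cell wall genes split between families. Expansins, which loosen walls, had 6 members higher and 11 lower of 23 tested, with 12 not tested. EXPA10 (AT1G26770) had 3.22, 3.35 and 4.16 in salt, against 0.511, 0.454 and 0.55 in control, and rose by 2.82 (SE 0.14, adjusted p = 1.9e-08). The expansin-like gene EXLB1 rose by 3.15 (SE 0.17, adjusted p = 4.24e-08). EXPA8 (AT2G40610) had 0.111, 0.177 and 0.135 in salt, against 0.933, 1.53 and 1.44 in control, and fell by 3.20 (SE 0.24, adjusted p = 3.93e-07), and the root hair expansins EXPA7 and EXPA18 fell by 2.38 and 2.04. EXPA7 is 1 of the root markers given above, EXPA18 fell beside them, and the part of tissue composition in their fall was not tested. Fasciclin-like arabinogalactan proteins, which sit at the cell surface, fell in 6 of 16. FLA9 (AT1G03870) had 3.77, 5.78 and 5.61 in salt, against 22.2, 20.9 and 22.1 in control, and fell by 2.13 (SE 0.14, adjusted p = 1.53e-07), whereas FLA5 rose by 2.98 (SE 0.20, adjusted p = 2.14e-07, normexp 1.60). Cellulose synthases of the secondary wall, CESA4, CESA7 and CESA8, rose by 0.59, 0.75 and 0.62, values just past the threshold, and CESA4 lost its call when any of 4 of the 6 arrays was left out (0.53 to 0.58). Of the 9 tested primary wall genes 1 fell, CESA2, by 0.59, which lost its call without control replicate 1 or 2 or salt replicate 1 (−0.57 to −0.52).

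Jasmonate genes were higher on both the synthesis and the breakdown side. The hormone is made from plastid lipids by lipoxygenases (LOX), allene oxide synthase and allene oxide cyclases (AOC), and is removed by oxidation, sulfation, methylation or hydrolysis of its conjugates. All 7 genes of the second group rose (median 1.71), as did 7 of 12 tested genes of synthesis, with 2 that fell. CYP94B3 (AT3G48520), which oxidizes the active conjugate, had 2.56, 2.32 and 2.36 in salt, against 0.0861, 0.123 and 0.166 in control, and rose by 4.32 (SE 0.20, adjusted p = 1.12e-08). JMT (AT1G19640), the methyltransferase, had 0.467, 0.421 and 0.325 in salt, against 0.0183, 0.0291 and 0.0272 in control, and rose by 4.04 (SE 0.25, adjusted p = 8.77e-08, normexp 2.88). LOX2 (AT3G45140) had 63.4, 45.4 and 45.6 in salt, against 11.1, 13 and 7.15 in control, and rose by 2.33 (SE 0.21, adjusted p = 1.74e-06). In each case the salt arrays lay above all control arrays. The cyclases differed: AOC2 (AT3G25770) had 0.728, 0.824 and 0.823 in salt, against 3.79, 3.35 and 3.34 in control, and fell by 2.14 (SE 0.13, adjusted p = 8.51e-08), AOC1 fell by 1.03 (SE 0.15, adjusted p = 6.83e-05), and AOC3 rose by 1.11 (SE 0.20, adjusted p = 0.000377). These genes are close copies. The conjugating enzyme JAR1 changed by 0.27 and did not pass.

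Ethylene synthesis was changed at its committed step, the ACC synthases (ACS). ACS2 (AT1G01480) had 1.26, 1.29 and 0.829 in salt, against 0.0463, 0.0499 and 0.0444 in control, and rose by 4.56 (SE 0.17, adjusted p = 2.22e-09, normexp 3.97). ACS6 (AT4G11280) had 2.53, 2.46 and 1.92 in salt, against 0.473, 0.408 and 0.496 in control, and rose by 2.32 (SE 0.11, adjusted p = 1.67e-08). Where no array of a group was well above background, only a bound is given, the bright group against the higher of the lowest well-measured signal and the dim signal of each array. In this way ACS8 was at least 8.67-fold higher in salt (normexp change 1.51), and ACS7 rose by 1.78. ACS4 went the other way and fell by 2.95 (SE 0.24, adjusted p = 7.83e-07, normexp −1.15), with salt arrays well above background on 1 of 3. ACC synthase genes thus lay on both sides, and of the oxidases that form ethylene itself EFE fell (−0.83). Of 14 receptor and signalling genes 2 rose, among them the receptor ERS2 by 1.54.

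Cytokinin metabolism split by enzyme. LOG enzymes release the active base from its nucleotide, and LOG5 (AT4G35190) had 2.45, 1.87 and 2.46 in salt, against 0.149, 0.130 and 0.142 in control, and rose by 4.0 (SE 0.10, adjusted p = 2.76e-10). LOG4 rose by 2.12. The cytochromes that make trans-zeatin were lower: CYP735A2 (AT1G67110) had 0.00685, 0.0110 and 0.00780 in salt, against 0.140, 0.128 and 0.124 in control, a fall of 3.96 (SE 0.18, adjusted p = 1.08e-08, normexp −2.19) with salt arrays well above background on 1 of 3, and CYP735A1 was at least 10.6-fold lower in salt (normexp change −1.65), where its signal was not well above background. The isopentenyltransferase IPT3, which starts synthesis, fell by 1.33 (SE 0.14, adjusted p = 4.85e-06), and the oxidase CKX4, which degrades cytokinin, by 2.93 (SE 0.12, adjusted p = 3.61e-09, normexp −1.94). AHP4, a phosphotransfer protein, rose by 2.15 (SE 0.18, adjusted p = 9.05e-07). CYP735A genes are known from roots, and their fall stood beside the lower root markers given above; the part of tissue composition was not tested.

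Auxin conjugation genes were mostly higher, and transport genes passed about as often as all genes. GH3 enzymes attach amino acids to auxin, and 5 of 7 tested conjugation genes rose. GH3.1 (AT2G14960) had 0.172, 0.191 and 0.110 in salt, against 0.0269, 0.0321 and 0.0301 in control, and rose by 2.37 (SE 0.19, adjusted p = 6.86e-07, normexp 1.70), and GH3.3 rose by 1.86 (SE 0.16, adjusted p = 1.2e-06). Of 18 transport genes tested 5 fell, 2 rose and 11 did not pass (38.9% passed, beside 39.3% of all genes). The influx carriers LAX3 and AUX1 fell by 1.67 (SE 0.06, adjusted p = 1.98e-09) and by 1.1 (SE 0.09, adjusted p = 1.12e-06). The efflux carrier PIN7 (−0.88) and TAA1, the first enzyme of synthesis (−1.31), were also lower. Of 14 auxin response factors 1 rose and 1 fell. For brassinosteroids, growth hormones of the sterol class, 7 of 31 genes fell and 2 rose. Together 29.0% passed, below the 39.3% of all genes. The targets BEE1, BEE2 and BEE3 fell by 1.85, 1.67 and 1.77, and BEE1 (AT1G18400) had 0.232, 0.264 and 0.253 in salt, against 1.05, 0.795 and 0.864 in control. The last enzyme of synthesis, BR6OX2, rose by 1.29 (SE 0.09, adjusted p = 1.74e-07). In the strigolactone and karrikin pathway 3 of 14 tested genes rose and none fell, and the 21.4% that passed lay below the 39.3% of all genes. MAX1 and D27, 2 enzymes of synthesis, rose by 1.30 and 1.27. The list median was 0.07 and lay below 0 on slide 2 alone (−0.01).

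In the MAP kinase cascade, most listed genes of the first tier passed. That list held 12 genes chosen with earlier results of these data known, so the tiers cannot be compared as families. Of 11 MAPKKK genes tested 7 rose and 3 fell. MAPKKK18 (AT1G05100), which abscisic acid induces, had 1.92, 1.08 and 1.25 in salt, against 0.0251, 0.0298 and 0.0240 in control, and rose by 5.72 (SE 0.17, adjusted p = 6.55e-10, normexp 4.73). MAPKKK15, MAPKKK17 and MAPKKK19 rose by 2.99, 2.41 and 2.92, and MEKK3 fell by 1.38. In the lower tiers 18 of 25 did not pass, including the stress kinases MPK3 (0.11), MPK4 (0.16) and MPK6 (0.14), while MPK13 fell by 1.98 (SE 0.07, adjusted p = 2.61e-09). Secreted peptide genes held 13 that rose and 15 that fell of 45 tested, and 54 of 99 did not reach the signal for testing. The precursors of Pep danger signals were among the highest: PROPEP3 (AT5G64905) had 1.25, 1.32 and 0.823 in salt, against 0.0770, 0.0898 and 0.0641 in control, and rose by 3.86 (SE 0.20, adjusted p = 2.29e-08), PROPEP1 rose by 1.99 and PROPEP5 by 2.30. PROPEP2 rose by 4.33 (normexp 2.55), from controls well above background on 2 of 3 arrays. The abscission peptide IDA rose by 2.94 (SE 0.37, adjusted p = 2.44e-05, normexp 2.05) and its relative IDL1 by 2.93 (SE 0.22, adjusted p = 4.72e-07). CLE2 and RALFL27 fell, by 2.24 (SE 0.22, adjusted p = 3.35e-06, normexp −1.51) and by 1.90 (SE 0.15, adjusted p = 7.41e-07).

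Among PUB-type ubiquitin ligases, which mark proteins for degradation, 10 of 21 rose and none fell, although 1 was lower without control replicate 1. PUB19 was at least 77.2-fold higher in salt (normexp change 3.92), with no control array well above background. PUB24 (AT3G11840) had 1.09, 1.01 and 0.875 in salt, against 0.141, 0.161 and 0.134 in control, and rose by 2.77 (SE 0.13, adjusted p = 1.12e-08), and PUB23 rose by 2.02. Of 37 genes of phospholipid signalling 11 rose and 1 fell, with changes of moderate size. Together 32.4% passed, below the 39.3% of all genes. The lipid kinase PIP5K5 rose by 1.47 (SE 0.09, adjusted p = 8.24e-08) and PLC5 by 1.45 (SE 0.12, adjusted p = 6.87e-07), and the plasma membrane form PLC2 fell by 0.89 (SE 0.06, adjusted p = 2.58e-07).

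In protein folding in the endoplasmic reticulum (ER), chaperones mostly fell and few sensors and factors passed. Of 8 sensors and factors 2 rose (25.0%, beside 17.5% of all genes) and none fell. The factor BZIP60 (AT1G42990), activated when unfolded proteins accumulate, had 9.95, 10.5 and 7.79 in salt, against 2.54, 2.12 and 2.45 in control, and rose by 1.98 (SE 0.11, adjusted p = 3.66e-08). The membrane-bound NAC089 rose by 1.42 (SE 0.09, adjusted p = 9.11e-08), and UBC32, an ER ubiquitin-conjugating enzyme, by 1.71 (SE 0.12, adjusted p = 2.38e-07). Of 16 chaperones and folding enzymes 10 fell and 1 rose, the oxidase ERO1 (1.38). The co-chaperone P58IPK (AT5G03160) had 17.5, 17.2 and 18.3 in salt, against 68.2, 62.9 and 68.9 in control, and fell by 1.92 (SE 0.08, adjusted p = 5.46e-09). Calnexin CNX1 fell by 0.99, and BIP1 and BIP2, near-identical Hsp70 proteins of the ER, by 0.71 and 0.72.

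Metal transporters did not share a direction (8 higher and 5 lower of 30). The zinc transporter ZIP11 (AT1G55910) had 5.84, 5.98 and 6.03 in salt, against 1.64, 1.65 and 1.65 in control, and rose by 1.85 (SE 0.05, adjusted p = 3.73e-10), while ZIP5 (AT1G05300) had 0.188, 0.175 and 0.144 in salt, against 1.5, 1.14 and 1.45 in control, and fell by 3.01 (SE 0.15, adjusted p = 1.89e-08). The metal chelate carrier YSL2 rose by 2.63 (SE 0.36, adjusted p = 4.87e-05). Lipid transfer proteins, which carry lipids towards the outer wall, held the largest single rise of all lists: LTP4 (AT5G59310) had 12.3, 6.64 and 7.53 in salt, against 0.00424, 0.0120 and 0.0557 in control, and rose by 9.23 (SE 0.71, adjusted p = 5.32e-07, normexp 7.43), from controls that were well above background on 2 of 3 arrays. Its control arrays lay far apart, and without replicate 1 or 3 of the control the rise was 8.36 or 10.22. LTP3 (AT5G59320) had 58.6, 39.3 and 44.2 in salt, against 0.413, 0.482 and 0.730 in control, and rose by 6.47 (SE 0.23, adjusted p = 1.97e-09). EARLI1 and AZI1, related proteins of systemic defence, fell by 2.17 (SE 0.29, adjusted p = 4.29e-05) and by 2.14 (SE 0.23, adjusted p = 6.06e-06).

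Of 648 transcription factor genes tested in 28 families, 215 were higher and 100 lower in salt, and the median change was 0.17 beside −0.11 over all genes. In all 48.6% passed, beside 46.7% in the pathway lists and 39.3% of all genes. Families and members were chosen with earlier results known, so differences from all genes in share or median may reflect that choice. Of 902 listed factors 254 were not tested, and a factor bright in salt alone or in control alone could enter through the signal filter. The 10 largest increases lay in the ERF, R2R3 MYB, bHLH, LBD and HD-ZIP I families. This order rests in part on controls near background: DDF1 and MYB102 had no control array well above background, and MYB79 and ERF71 had 1 of 3. MYB79 rose by 5.76 (SE 0.31, adjusted p = 3.38e-08, normexp 3.64) and ERF71, a factor of the hypoxia response, by 5.68 (SE 0.35, adjusted p = 1.03e-07, normexp 3.18). Of the 10, DDF1 (2.97), MYB102 (3.03), ERF71 (3.18), MYB79 (3.64) and LBD1 (4.57) lay below BBX30 of the B-box family (4.94) under normexp. The offset of that correction draws changes from dim signals towards 0.

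**Figure D4:**
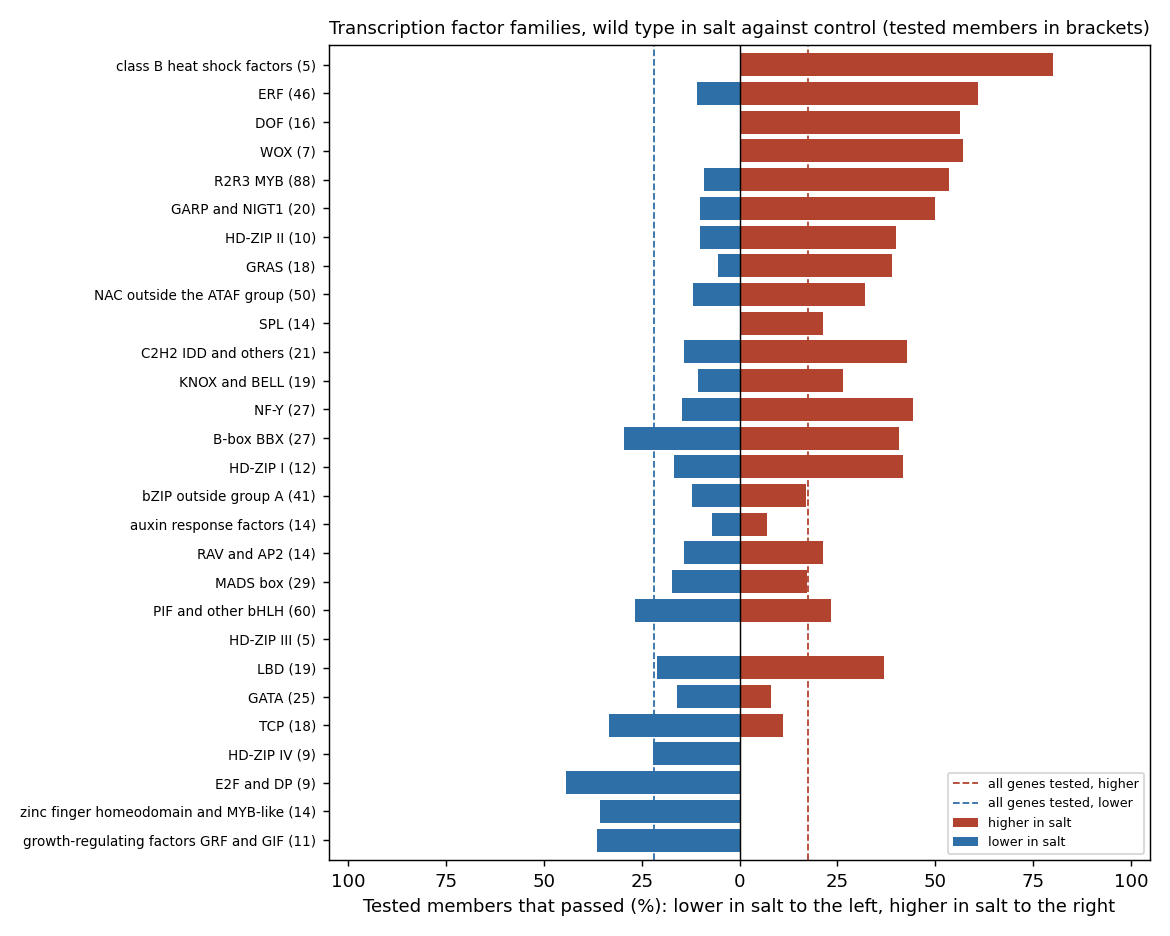
Tested members of each transcription factor family that passed, in per cent, with members higher in salt to the right and members lower in salt to the left, ordered by the median log2 change. Dashed lines mark 17.5% higher and 21.8% lower over all genes tested. Class B heat shock factors, ERF, DOF and WOX stand at the top, and growth-regulating factors, zinc finger homeodomain and E2F genes at the bottom.

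ERF proteins bind GCC-box and dehydration elements, and 28 of 46 tested rose and 5 fell (median 1.07). RRTF1 (AT4G34410) had 1.74, 1.56 and 0.969 in salt, against 0.00434, 0.00198 and 0.0134 in control, and rose by 8.15 (SE 0.57, adjusted p = 2.4e-07, normexp 5.35), with 1 of 3 control arrays well above background. DDF1, of the group that controls gibberellin and stress tolerance, was at least 32.5-fold higher (normexp change 2.97). ERF6 (AT4G17490) had 6.46, 7.08 and 4.08 in salt, against 0.727, 0.547 and 0.461 in control, and rose by 3.33 (SE 0.23, adjusted p = 2.05e-07). RRTF1 and DDF1 thus started from controls at or near background, and without control replicate 3 the rise of RRTF1 was 8.88 and without control replicate 2 it was 7.5. TINY and RAP2.11 went the other way and fell by 2.52 (SE 0.17, adjusted p = 1.78e-07) and by 2.37 (SE 0.16, adjusted p = 1.89e-07, normexp −1.64). R2R3 MYB genes, the largest family here, had 47 higher and 8 lower of 88. MYB75 (AT1G56650), the anthocyanin activator also called PAP1, had 5.25, 3.78 and 3.79 in salt, against 0.0369, 0.0481 and 0.0351 in control, and rose by 6.73 (SE 0.20, adjusted p = 7.26e-10, normexp 6.03). MYB102 was at least 29.8-fold (normexp change 3.03) and MYB2 at least 24.0-fold higher (normexp change 2.43), and MYB15 and the suberin regulator MYB41 rose by 4.79 (normexp 4.20) and 4.16 (normexp 3.17). MYB121 (AT3G30210) had 1.29, 1.16 and 1.45 in salt, against 0.00248, 0.0103 and 0.00728 in control, and rose by 7.82 (SE 0.41, adjusted p = 2.61e-08, normexp 5.15), or by 7.22 without control replicate 1, with 2 of 3 control arrays well above background. MYB60, a guard cell factor, fell by 1.18 (SE 0.13, adjusted p = 8.56e-06), and MYB40 by 2.59 (SE 0.20, adjusted p = 5.84e-07, normexp −1.61).

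The subunits of NF-Y, a complex that binds the CCAAT box, differed by class. NF-YA members, the sequence-reading subunit, rose in 8 of 9 tested and none fell (median 1.14), whereas NF-YB had 2 higher and 1 lower of 9, and NF-YC 2 higher and 3 lower of 9. NF-YA5 (AT1G54160), known for its role in drought, had 1.02, 0.588 and 0.737 in salt, against 0.0461, 0.0430 and 0.0464 in control, and rose by 4.08 (SE 0.17, adjusted p = 5.92e-09, normexp 3.25). NF-YA4, NF-YA10 and NF-YA1 rose by 1.91, 1.86 and 1.48, and NF-YA8 changed by −0.39 and did not pass. NF-YB2 (AT5G47640), which acts in flowering, had 9.68, 7.15 and 8.49 in salt, against 1.61, 1.53 and 1.5 in control, and rose by 2.44 (SE 0.10, adjusted p = 4.72e-09). NF-YC2 (AT1G56170) had 2.09, 1.99 and 2.12 in salt, against 0.223, 0.206 and 0.241 in control, and rose by 3.21 (SE 0.08, adjusted p = 1.46e-10), and NF-YC4 fell by 1.40 (SE 0.08, adjusted p = 7.52e-08). NF-YA8 stood alone in its class in lying below 0.

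B-box (BBX) zinc finger genes, many of which follow light and the daily cycle, spread to both sides: 11 of 27 were higher and 8 lower. BBX30 (AT4G15248) had 2.96, 2.22 and 2.75 in salt, against 0.0636, 0.0523 and 0.0521 in control, and rose by 5.56 (SE 0.11, adjusted p = 6.04e-11). BBX31 rose by 4.70 (SE 0.15, adjusted p = 8.46e-10). BBX16 and BBX32 rose by 4.52 and 4.5. BBX7 (AT3G07650), also called COL9, had 0.0693, 0.0825 and 0.0717 in salt, against 0.620, 0.608 and 0.658 in control, and fell by 3.08 (SE 0.08, adjusted p = 2.06e-10), and BBX1, the flowering regulator CONSTANS, fell by 2.54 (SE 0.12, adjusted p = 9.99e-09). BBX8 fell by 2.74 (SE 0.10, adjusted p = 3.13e-09). The closest relatives of CONSTANS, BBX2 and BBX3, rose by 3.17 and 3.35. The other 8 tested members did not pass. The cycling DOF factors CDF1, CDF2 and CDF3 rose by 1.82, 1.84 and 1.77, part of 9 of 16 DOF genes that rose with none lower (1 lower without replicate 1 of either group), and BOA, a relative of a clock component, fell by 1.70 (SE 0.07, adjusted p = 5.38e-09). These genes are known to cycle through the day, and the groups were taken 12 h apart, so salt and hour cannot be told apart for them.

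**Figure D5:**
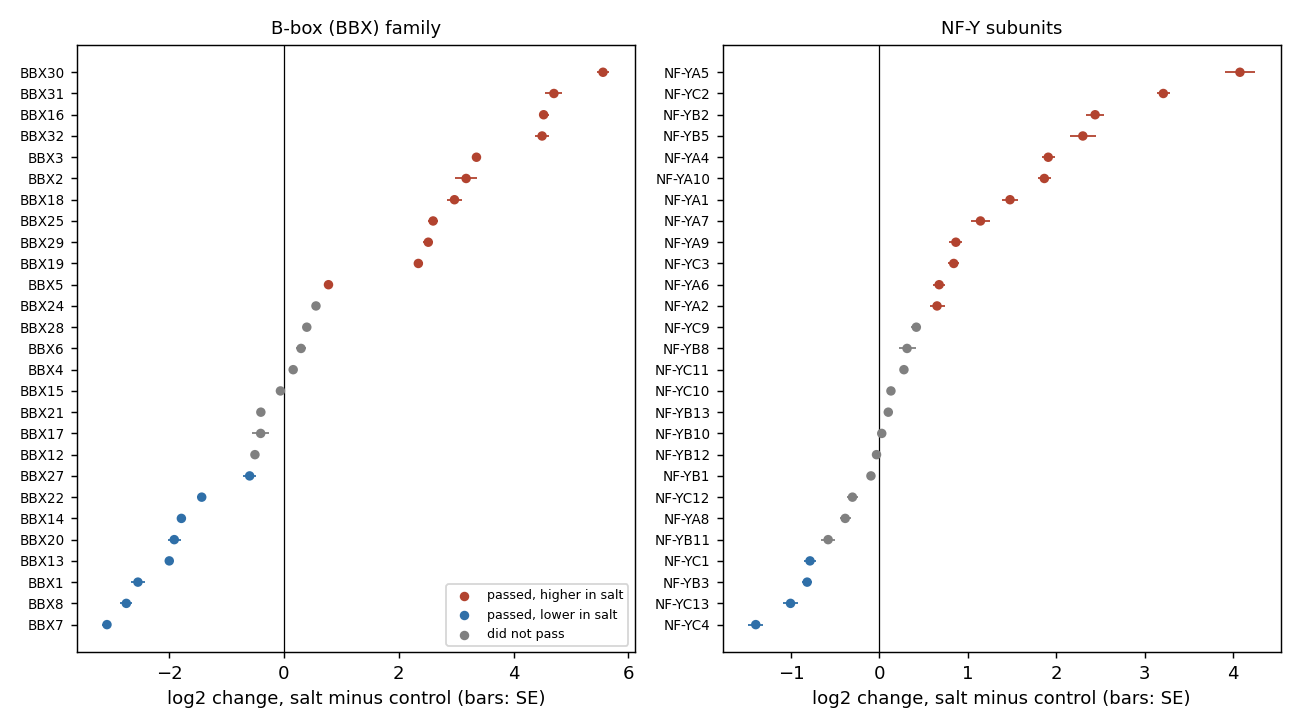
Log2 change, salt minus control, of each tested BBX gene (left) and NF-Y subunit gene (right), with bars for the SE of the fit. BBX genes reach from 5.56 for BBX30 to −3.08 for BBX7, and NF-YA genes lie above 0 with the exception of NF-YA8.

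HD-ZIP I factors HB-12 and HB-7, known targets of abscisic acid, had the largest changes of their class. HB-12 (AT3G61890) had 18.5, 13.1 and 16.9 in salt, against 0.325, 0.337 and 0.277 in control, and rose by 5.68 (SE 0.12, adjusted p = 8.34e-11), and HB-7 rose by 5.36 (SE 0.19, adjusted p = 1.74e-09). HB21, HB40 and HB53, which act together in bud dormancy, rose by 2.13, 1.89 and 1.5. No member of HD-ZIP III or IV rose, and 2 of 9 class IV genes, known from the epidermis, fell (22.2%, beside 21.8% of all genes). Class B heat shock factors, mostly repressors, together with HSFC1, rose in 4 of 5. HSFB2A (AT5G62020) had 2.54, 1.90 and 2.13 in salt, against 0.475, 0.461 and 0.445 in control, and rose by 2.24 (SE 0.09, adjusted p = 5.89e-09). NAC genes outside the ATAF group had 16 higher and 6 lower of 50. The senescence regulator NAP (AT1G69490) had 3.24, 1.79 and 2.28 in salt, against 0.128, 0.220 and 0.102 in control, and rose by 4.06 (SE 0.28, adjusted p = 1.87e-07). NAC042, also known as JUB1, rose by 3.74 (SE 0.19, adjusted p = 2.1e-08, normexp 2.89), and NAC6, also known as ORE1, by 2.56 (SE 0.11, adjusted p = 8.27e-09).

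bHLH genes were near evenly divided, with 14 higher and 16 lower of 60. BHLH92 (AT5G43650) had 1.27, 1.1 and 0.668 in salt, against 0.00254, 0.00296 and 0.0197 in control, and rose by 7.53 (SE 0.63, adjusted p = 9.95e-07, normexp 5.01), with 1 of 3 control arrays well above background. BHLH42, also called TT8, a partner of MYB75, rose by 3.10 (SE 0.21, adjusted p = 2.08e-07, normexp 1.83). The growth factor HBI1 (AT2G18300) had 0.0944, 0.132 and 0.117 in salt, against 1.28, 1.45 and 1.39 in control, and fell by 3.60 (SE 0.10, adjusted p = 5.31e-10). PRE4 fell by 3.15 (SE 0.27, adjusted p = 1.27e-06, normexp −1.34) and PRE5 by 1.5 (SE 0.16, adjusted p = 7.2e-06), and RSL2, a root hair factor that moved with the root markers above, by 2.42 (SE 0.14, adjusted p = 4.88e-08, normexp −1.83). HBI1 and the PRE genes belong to 1 growth module. For PRE4, 1 of 3 salt arrays was well above background, and without control replicate 3 the rise of BHLH92 was 8.48. Among bZIP genes outside group A, the G-box factor GBF3 (AT2G46270) had 1.51, 1.12 and 1.21 in salt, against 0.156, 0.196 and 0.170 in control, and rose by 2.88 (SE 0.11, adjusted p = 3.85e-09). BZIP63 (AT5G28770), which acts downstream of SnRK1, had 0.425, 0.481 and 0.468 in salt, against 1.80, 2.08 and 1.92 in control, and fell by 2.08 (SE 0.09, adjusted p = 8.22e-09).

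Some families of growth and cell division regulators had lower members and no higher ones. Growth-regulating factors fell in 4 of 11, E2F, DP and RBR1 genes in 4 of 9, and zinc finger homeodomain genes in 5 of 14, with none higher in these 3 families. The shares that passed were 36.4%, 44.4% and 35.7%, near the 39.3% of all genes, of which 21.8% were lower and 17.5% higher. Without control replicate 2 or salt replicate 1, 1 zinc finger homeodomain gene was higher. GRF5 (AT3G13960) had 0.0731, 0.0945 and 0.0956 in salt, against 0.187, 0.202 and 0.234 in control, and fell by 1.25 (SE 0.15, adjusted p = 1.6e-05). The E2F-like repressor DEL3 fell by 1.21 (SE 0.05, adjusted p = 7.02e-09), and the zinc finger homeodomain gene HB23 (AT5G39760) by 1.96 (SE 0.07, adjusted p = 2.69e-09). ANT (AT4G37750), which promotes organ size, had 0.526, 0.547 and 0.512 in salt, against 1.25, 1.36 and 1.49 in control, and fell by 1.37 (SE 0.07, adjusted p = 1.43e-08). Of 18 TCP genes 6 fell and 2 rose, and the leaf regulators TCP3 and TCP4 fell by 0.78 and 0.85, while 1 of the higher TCP genes, TCP15, lost its call without control replicate 1 (0.56) or salt replicate 2 (0.58). IDD2, a zinc finger factor of the INDETERMINATE DOMAIN group, fell by 2.27 (SE 0.05, adjusted p = 1.15e-10), and STZ, a salt tolerance zinc finger, rose by 2.21 (SE 0.23, adjusted p = 5.68e-06).

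Developmental families held single members with large rises. LBD1 (AT1G07900) had 1.33, 0.695 and 0.968 in salt, against 0.0101, 0.0116 and 0.0136 in control, and rose by 6.36 (SE 0.20, adjusted p = 8.03e-10, normexp 4.57). LBD16 and LBD33, which act in lateral root initiation, rose by 1.99 (SE 0.12, adjusted p = 7.9e-08) and by 4.89 (SE 0.40, adjusted p = 8e-07, normexp 2.46), and LBD33 by 4.28 without control replicate 1. SPL5 (AT3G15270) had 0.128, 0.140 and 0.143 in salt, against 0.0247, 0.0227 and 0.0220 in control, and rose by 2.56 (SE 0.07, adjusted p = 2.28e-10, normexp 1.68), and SPL4 rose by 1.81 (SE 0.07, adjusted p = 3.96e-09). WOX2, known from the embryo, rose by 2.59 (SE 0.15, adjusted p = 7.1e-08, normexp 1.19). For LBD1, LBD33 and WOX2, 2 of 3 control arrays were well above background. The MADS factor AGL44, also called ANR1, was at least 4.79-fold higher (normexp change 1.03, and 1.63 under either other filter on dim probes), and AGL8, also called FUL, rose by 1.76 (SE 0.13, adjusted p = 4.13e-07). Of 98 MADS genes 69 were not tested. The root cap factors BRN2 and SMB fell by 0.87 and 0.80, and SMB did not pass under the normexp background correction (−0.40).

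Outside the lists, the largest changes by the naming rule included genes that belong to no group above. TSPO (AT2G47770), a membrane protein of the ER and Golgi, had 32.7, 19.1 and 26.6 in salt, against 0.0380, 0.0433 and 0.0837 in control, and rose by 8.95 (SE 0.32, adjusted p = 1.78e-09). BGLU24, a beta-glucosidase, rose by 8.65 (SE 0.46, adjusted p = 3.07e-08, normexp 6.26), and ATHSP22.0, a small heat shock protein of the ER, by 7.91 (SE 0.50, adjusted p = 1.07e-07, normexp 5.69), with 2 of 3 and 1 of 3 control arrays well above background. ABCF2, of the ABC protein family, was at least 52.2-fold higher (normexp change 3.96). The largest increases also held RD20 (9.64, normexp 8.65), SAG29 (9.38, normexp 8.76), LEA7 (9.10) and NUDT24 (7.90, normexp 4.78), the last with 1 of 3 control arrays well above background. On scan day 1 alone the rise of NUDT24 was 9.17. LEA4-5, BGLU27 and HAI2, with no control array well above background, were at least 402-fold, 115-fold and 133-fold higher (normexp changes 6.28, 5.04 and 4.85). Among the decreases RbcX1 (AT4G04330), an assembly chaperone of Rubisco, had 0.146, 0.146 and 0.163 in salt, against 5.31, 5.17 and 4.97 in control, and fell by 5.09 (SE 0.09, adjusted p = 2.64e-11). MEE14 (AT2G15890) had 0.642, 0.647 and 0.553 in salt, against 15.4, 17.2 and 14.4 in control, and fell by 4.67 (SE 0.11, adjusted p = 1.15e-10). Their 3 arrays per group lay close together. The anion channel protein SLAH1, which loads chloride into the xylem of roots, fell by 4.53 (SE 0.41, adjusted p = 1.94e-06, normexp −1.81), with 1 of 3 salt arrays well above background. CYP712A2 and CYP76G1, both cytochromes P450, were at least 17.7-fold and 8.76-fold lower (normexp changes −2.51 and −1.52). PYL6, of the abscisic acid receptor family, fell by 5.58 (SE 0.12, adjusted p = 8.76e-11, normexp −4.79), and the MYB-like genes RL3 and RL5 fell by 4.48 (normexp −3.88) and 4.09 (normexp −2.02). CRK30, a receptor-like kinase, and BG3, a beta-glucanase, fell by 4.39 (normexp −2.86) and 4.07 (normexp −1.97). Salt arrays were well above background on 1 of 3 for RL5 and 2 of 3 for CRK30 and BG3. The cation exchanger-like CHX16 and the purine permease PUP4 fell by 3.97 (SE 0.15, adjusted p = 3.41e-09, normexp −3.26) and by 4.01 (SE 0.19, adjusted p = 1.51e-08). PCC1 (AT3G22231), a small defence-related protein, fell by 4.03 (SE 1.11, adjusted p = 0.00638), but its control arrays spread widely, with 0.103, 0.0300 and 0.132 in salt, against 0.282, 2.51 and 2.51 in control. Its change was −5.08 without control replicate 1 and −3.37 without salt replicate 2.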

How the data were processed

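RNA of whole Ler seedlings was hybridized by the authors, 1 sample per array, to 1-colour Agilent Arabidopsis arrays. The deposited scanner files held spot intensity with local background subtracted by the scanner software, and the deposited value table held log2 values made by the authors. Across 43527 probes the table differed from log2 of the scanner intensity, less the 75th percentile of the array, by an SD of at most 0.00565. Control spots and 76 probes with outlier flags were left out. Intensities were divided by the 75th percentile and log2 transformed, probes with signal over 100 and a CV under 50% on all 3 arrays of at least 1 group were kept (28833), and the brightest probe of each locus was used (19027 genes, 5319 with several probes). Genes were tested with limma 3.58.1 in R 4.3.3, in 1 fit over 12 arrays with 4 group means and no block. On simulated data for these 19027 genes the fit called 92 of 100 genes changed by 1 in log2, 100 of 100 changed by 2 and 3 of 18827 left unchanged. The simulation used independent normal noise and few changed genes, whereas 39.3% of genes passed in the data. It therefore checks the code and does not give the error rate or power of the real calls. Labels name 3 samples per group but not separate cultures, so p-values measure the spread between these samples only, and the number of arrays limits precision.

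Loci were named through the array's gene names and a RefSeq gene table. Of the entries of the lists, 1840 matched a current symbol, 321 a synonym and 61 were set by hand, while 44 matched none and 14 matched several. A further 59 entries were removed by hand, by the rule that the symbol led to a gene other than the one meant. Another 565 came from numbered series and matched no locus. Lists and members were chosen with earlier results of these data known. Genes for naming were, by rule, the 15 largest increases and decreases, the 10 largest among transcription factors and the 2 largest of each list in each direction, with the largest change that did not pass. The first 2 sets are given in full, and not every gene of the lists' set is printed. Other genes were chosen after their values were seen (among them AOX1A, NDA1, NDB2, LOX2, ACS6, CKX4, CDF3, MYB2, ERF6 and most further members given beside the leaders of a list). Promoter motifs were not analysed here. The alternatives tried were other background corrections, scalings, filters and probe rules, the authors' values, the wild-type arrays alone, blocks, slides and each array left out.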

Additional observations from a re-analysis of the deposited data

Results flagged for a closer look

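The salt effect differed between the genotypes for 28 of the 424 genes with names by rule or choice. The test was the interaction term of the same limma fit (adjusted p at most 0.05 and over 1.5-fold). Of all genes tested 2.56% differed in this way. Many named genes were picked by their wild-type change, which is part of the interaction, so the 2 shares are not comparable. Values are the proatcape1 salt effect minus the wild-type salt effect in log2. The largest was PUB54, a ubiquitin ligase, with 4.55 (SE 0.90, adjusted p = 0.0211), but its wild-type arrays overlapped and spread widely, with 0.146, 0.0881 and 0.0573 in salt, against 0.0698, 0.172 and 0.533 in control. The next was PER1, a seed peroxiredoxin, with −2.75 (SE 0.61, adjusted p = 0.0288), low on all wild-type arrays.

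Genes that rose in wild type and more in proatcape1 included the mitochondrial BCS1 with 1.967 and NDA1 with 1.090, the nitrate transporter NRT1.8 with 1.400 and the ACC synthase ACS7 with 1.385. Also on this side were BBX32 with 0.965, BBX31 with 0.790 and BBX30 with 0.756, UBC32 with 0.813 and NAC089 with 0.649 of the ER list, the sigma factor SIGE with 0.687 and the phosphatase TPPJ with 0.668. CHX16 with 0.839 and SNZ, an AP2 factor, with 0.666 had differences of the same sign.

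Differences below 0 were found for genes of replication, CDC6 with −0.736 and PCNA2 with −0.734, and of the plastid polymerase, PTAC10 with −0.691, PTAC11 with −0.674 and FSD2 with −0.629. Further ones were NAC042 with −1.007, OLEO4, an oil body protein, with −0.890, EXPA10 with −0.851, SPL5 with −0.812, TPPH with −0.745, NF-YC13 with −0.648, TCP3 with −0.643 and HB31 with −0.587.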

How the results depend on the processing

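Over the alternatives with a test at 1.5-fold, the number of genes higher in salt lay between 3160 (normexp) and 3846 (no filter on dim probes), and the number lower between 3678 and 4773. Leaving out each array gave 3256 to 3380 higher and 3874 to 4298 lower. A threshold of 2-fold left 2149 higher and 1907 lower. Slides alone, over 1.5-fold with no test, gave 3573, 3192 and 3371 genes higher and 4619, 3757 and 4163 lower. No gene passed in opposite directions, with the exception of 2 genes under the mean of the probes of a locus. Same-numbered wild-type samples did not deviate together (correlations −0.12, −0.20 and −0.11), so the numbers were not taken as pairs, and the replicate block, which was also the slide, gave 3326 higher and 4149 lower. Signs turned for 4 genes that did not pass: PUB54 (0.049 on scan day 1 alone, adjusted p = 0.937), PI (−0.003, scan day 1 alone), RBCS1A (0.009, scan day 1 alone) and CAB1 (−0.065 under the mean of probes and −0.009 without control replicate 2, with 0.049 without control replicate 3). Of the 424 named genes, 10 lost their call under at least 1 alternative other than the 2-fold threshold and single arrays left out, and 6 when 1 array was left out (CESA2, CESA4, ATG8H, TCP15, NF-YA2 and DIN6). Of 146 list counts 26 moved by over 1.5 times under at least 1 setting, such as NAC genes lower (3 under normexp), MADS genes higher (12 with no filter) and dark-inducible or SnRK1 genes higher (3 on scan day 1 alone). List medians near 0 changed sign under some settings. The cause was not tested.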

Other observations

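For 9 loci, probes of the same locus passed in opposite directions. RAB18, a dehydrin (AT5G66400), was the most extreme. Its brightest probe had relative signals of 7.02, 4.29 and 4.96 in salt, against 19.5, 18.7 and 18.5 in control, a change of −1.83, whereas its 3 other probes changed by 4.96, 4.92 and 4.83. One of those had 57.1, 28.8 and 35.5 in salt, against 1.24, 1.36 and 1.51 in control. The protochlorophyllide reductase PORA (AT5G54190) changed by −1.82 with the brightest probe and 2.01 with another. CYP76C2 (AT2G45570), a cytochrome P450, changed by −0.64 and 4.39, and the expansin-like EXLA3 (AT3G45960) by 2.18 and −0.78. RAB18 and CYP76C2 were the genes that passed as lower with the brightest probe and as higher with the mean of the probes.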
